A study of Mus musculus with 16 samples.

Results

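Genes whose RNA marks the dentate gyrus or the pyramidal cell fields (CA) of the hippocampus were followed in *Mef2c*-het and WT mice. The list holds 10 genes, with 4 markers of dentate granule cells (*Prox1*, *C1ql2*, *Dsp*, *Tdo2*) and 6 of CA pyramidal cells (*Wfs1*, *Pou3f1*, *Man1a*, *Bok*, *Nr3c2*, *Pcp4*). Members were all rows of the deposited bead array table that carried one of these symbols or an older name of the same gene, which gave 11 of 25697 probes for 9 of 17567 named genes. *C1ql2* is written BC040774 in the table. The row taken for *Dsp* is written 5730453H04Rik, an older name of *Dsp* in the RefSeq gene table, and was matched by that name alone. Expression of *Nr3c2* was not analysed here, and only its promoter was read.

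Hippocampal RNA was hybridised to Illumina MouseRef-8 v2 beadchips, on which the brightness of many beads with the same probe is averaged. There were 4 arrays in each of 4 groups, WT mice and *Mef2c*-het mice (labelled KO) at postnatal day (P) 1 and at P30. Per the study's methods *Mef2c*-het mice were heterozygous for a conventional allele lacking exon 2 on the C57BL/6J background, so that every cell type carried the deletion, and WT littermates served as controls. The labels name no sorting of the tissue and no drug treatment. The labels do not say that each array was a separate animal, so p-values measure the spread between these arrays.

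The hippocampus holds the granule cells of the dentate gyrus and the pyramidal cells of the CA fields, which differ in birth date, in wiring and in the genes they use. Granule cells send mossy fibres to CA pyramidal cells, and in rodents many of them are born after birth. *Prox1* encodes a homeodomain factor that progenitors and granule cells of the dentate gyrus use, *C1ql2* a C1q-like protein secreted at mossy fibre synapses, *Dsp* the desmosomal protein desmoplakin, and *Tdo2* the enzyme tryptophan 2,3-dioxygenase. *Wfs1* encodes wolframin of the endoplasmic reticulum, *Pou3f1* a POU-domain transcription factor, *Man1a* a mannosidase that trims N-glycans, *Bok* a BCL-2 family protein and *Pcp4* a small calmodulin-binding protein. MEF2C is a transcription factor of neurons that binds A/T-rich sites.

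The promoters shown are those of the gene of each cell class with the largest rise from P1 to P30 and of the gene that fell, since MEF2C is a factor that binds DNA and these genes share a tissue but not a direction. Each is the 250 bases before the RefSeq start in GRCm38.p6, 5′ to 3′ on the strand of the gene, outside the gene itself, with E-boxes (CANNTG, the core letters bound by basic helix-loop-helix factors) in capitals. *C1ql2* (chr1:120340332-120340581, plus strand) and *Wfs1* (chr5:36988983-36989232, minus strand) were higher at P30, and *Prox1* (chr1:190170828-190171077, minus strand) was lower. RefSeq lists 2 promoters for *Prox1*, of which the outer is printed.
C1ql2: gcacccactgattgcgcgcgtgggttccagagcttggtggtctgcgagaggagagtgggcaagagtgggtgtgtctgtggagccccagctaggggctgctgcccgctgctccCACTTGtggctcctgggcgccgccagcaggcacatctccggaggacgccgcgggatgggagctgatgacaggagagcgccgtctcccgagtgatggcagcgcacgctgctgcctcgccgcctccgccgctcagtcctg
Wfs1: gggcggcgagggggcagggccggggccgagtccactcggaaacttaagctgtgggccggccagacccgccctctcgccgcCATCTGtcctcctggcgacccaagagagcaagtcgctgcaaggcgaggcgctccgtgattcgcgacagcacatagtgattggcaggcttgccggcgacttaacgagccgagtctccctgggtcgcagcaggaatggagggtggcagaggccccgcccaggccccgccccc
Prox1: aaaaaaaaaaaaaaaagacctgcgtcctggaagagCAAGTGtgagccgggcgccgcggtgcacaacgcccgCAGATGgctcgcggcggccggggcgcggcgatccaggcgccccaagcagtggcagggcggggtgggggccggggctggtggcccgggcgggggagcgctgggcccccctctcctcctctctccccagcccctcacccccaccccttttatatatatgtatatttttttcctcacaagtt
Of all 32851 RefSeq promoters of this length, 66.2% hold CANNTG, and 4 of the 10 promoters found for 9 of the listed genes do, those of *C1ql2*, *Nr3c2*, *Prox1* and *Wfs1*. The outer frame of a MEF2 site, CTA then any 4 bases then TAG, reads the same on both strands, and stands in 3.20% of all promoters and in 0 of these 10. No match says only that these letters are not in this window. The 3 promoters printed are rich in G and C, at 68.8% for *C1ql2*, 69.6% for *Wfs1* and 64.8% for *Prox1*, against a median of 52.4% over all promoters.

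Each array detected 12638 to 14150 probes (detection p under 0.05). The median probe was covered by 36 to 39 beads, whose standard error was 3.38% to 4.05% of the signal. The arrays of each age fell into 2 clusters by the correlation of all their signals. With arrays named by genotype and replicate number, at P30, 3 arrays (WT 6, WT 7 and *Mef2c*-het 7) stood apart from the other 5, and at P1, 2 arrays (WT 8 and *Mef2c*-het 8) stood apart from the other 6. *Xist* and Y-linked signals read all P30 arrays as male, and WT 8, *Mef2c*-het 2 and *Mef2c*-het 8 as the male arrays at P1. *Mef2c*, the targeted gene, had 2 probes detected on all 16 arrays. At P30 they read 0.29 and 0.24 lower (log2) in *Mef2c*-het than in WT, with overlapping arrays (two-sided exact permutation p = 0.2 and 0.371, n = 4 per group), and at P1 the differences were 0.067 and -0.0059 (p = 0.714 and 0.971). Where these probes lie relative to the deleted exon is not given in the sources used here, so they do not check the labels.

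Levels below are log2 intensities, quantile normalized over all 16 arrays, and are compared between groups for a probe and not between probes. The genotype comparison, the array clusters and the outlying arrays instead use values normalized within each age. A probe was tested where its detection p was under 0.05 on at least 4 arrays of a comparison, and called at an adjusted p under 0.05 in limma (Benjamini-Hochberg over all probes tested, two-sided). *Tdo2* and *Pcp4* were not above background on any of the 16 arrays, with raw intensities of 110 to 169 and 110 to 168, and were not tested. Signal at background does not show that their RNA was absent. The granule cell list thus rests on the other 3 genes and the CA list on the other 4. The *Prox1* probe ILMN_2894355 was above background on 3 of 16 arrays and was not tested either, whereas the other *Prox1* probe, ILMN_2598766, was detected on all 16. The 8 remaining probes, of 7 genes, were tested between the ages.

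**Figure D1:**
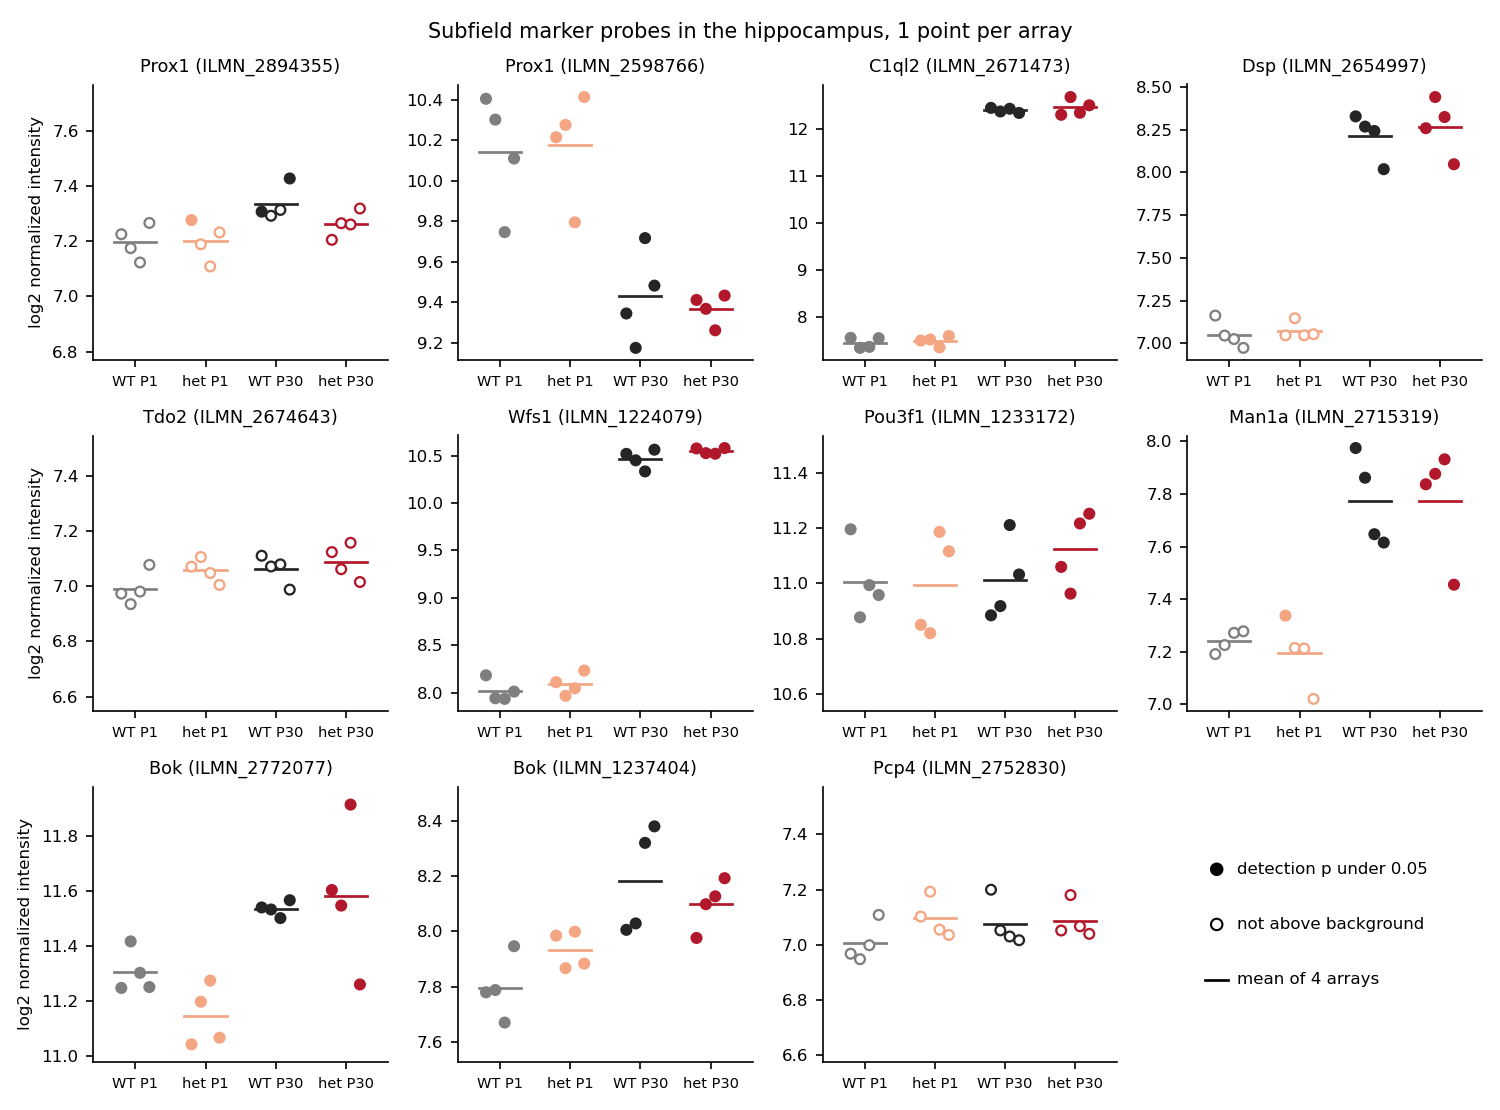
Log2 normalized intensity (y axis, a separate scale per panel) of the 11 probes in the 4 groups, 1 point per array and a bar at the mean of 4 arrays. Filled points are above background; *C1ql2*, *Wfs1* and *Dsp* were higher on every P30 array than on every P1 array, *Prox1* ILMN_2598766 was lower, and *Tdo2* and *Pcp4* show open points only.

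*C1ql2* had the largest difference between the ages among the listed genes. In WT mice the P1 arrays read 7.56, 7.35, 7.37 and 7.55 and the P30 arrays 12.45, 12.37, 12.43 and 12.34. In *Mef2c*-het mice the P1 arrays read 7.50, 7.52, 7.36 and 7.60 and the P30 arrays 12.30, 12.68, 12.35 and 12.51. The P1 arrays were all low and the P30 arrays all high, in both genotypes, and no arrays of the 2 ages came near each other. The rise was 4.94 ± 0.083 (SE) in WT, or 30.8-fold (95% interval 4.77 to 5.12, limma adjusted p = 2.10e-16), and 4.96 ± 0.083 in *Mef2c*-het, or 31.2-fold (adjusted p = 2.60e-16). Among 14777 probes tested this rise ranked 11 in WT and 9 in *Mef2c*-het. At P1 the probe was detected on every array but close to background, with detection p-values up to 0.0326 and raw intensities of 141 to 237, against 4332 to 6683 at P30. Subtracting background by normexp took the rise to 6.63 in WT and 6.57 in *Mef2c*-het.

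*Dsp* followed *C1ql2* in direction with a smaller difference. Its P1 arrays read 7.16, 7.05, 7.03 and 6.97 in WT and 7.05, 7.15, 7.05 and 7.05 in *Mef2c*-het, none of them above background. Its P30 arrays read 8.33, 8.27, 8.24 and 8.02 in WT and 8.26, 8.44, 8.32 and 8.05 in *Mef2c*-het, all above background. The ages did not overlap in either genotype. Since the P1 arrays give only a bound, *Dsp* was at least 1.86-fold higher at P30 in WT and at least 1.94-fold higher in *Mef2c*-het, taking for each P1 array the lowest normalized signal of a detected probe. The limma adjusted p was 3.42e-09 in WT and 2.63e-09 in *Mef2c*-het, but *Dsp* passed the detection filter through its P30 arrays alone, where it was high, so these p-values are no further support. The size of the rise depended on the background correction. On the log2 scale it was 1.16 in WT and 1.19 in *Mef2c*-het without normexp, and 2.86 and 2.93 with it.

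*Prox1*, which progenitors already use before granule cells mature, went the other way. The probe ILMN_2598766 read 10.40, 10.30, 9.75 and 10.11 at P1 in WT and 9.34, 9.18, 9.72 and 9.48 at P30. In *Mef2c*-het it read 10.21, 10.28, 9.79 and 10.41 at P1 and 9.41, 9.37, 9.26 and 9.43 at P30. All P1 arrays were above all P30 arrays of the same genotype, but in WT the lowest P1 array, 9.75, lay next to the highest P30 array, 9.72. The fall was 1.64-fold in WT (log2 -0.71 ± 0.15, 95% interval -1.02 to -0.40, limma adjusted p = 0.000556) and 1.75-fold in *Mef2c*-het (-0.81 ± 0.15, adjusted p = 0.000183). In *Prox1* ILMN_2894355, mostly not above background, the mean was 7.20 at P1 and 7.34 at P30 in WT, and over the 16 arrays the 2 probes had a Pearson r of -0.38. The fall of *Prox1* rests on the brighter probe alone.

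*Wfs1* had the largest rise among the CA markers. In WT the P1 arrays read 8.18, 7.94, 7.94 and 8.01 and the P30 arrays 10.52, 10.45, 10.33 and 10.56. In *Mef2c*-het the P1 arrays read 8.11, 7.97, 8.05 and 8.23 and the P30 arrays 10.57, 10.53, 10.52 and 10.58. The ages were far apart in both genotypes, and the probe was detected on all 16 arrays. *Wfs1* rose 5.45-fold in WT (log2 2.45 ± 0.072, 95% interval 2.29 to 2.60, limma adjusted p = 8.84e-14) and 5.50-fold in *Mef2c*-het (2.46 ± 0.072, adjusted p = 9.16e-14), ranking 130 and 122 among all rises. After normexp the rise was 3.24 in WT and 3.20 in *Mef2c*-het.

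*Man1a* was dim throughout. It was above background on 0 of 4 WT and 1 of 4 *Mef2c*-het arrays at P1, where it read 7.19, 7.23, 7.27 and 7.28 in WT and 7.34, 7.21, 7.21 and 7.02 in *Mef2c*-het. All 8 P30 arrays were above background, at 7.97, 7.86, 7.65 and 7.62 in WT and 7.84, 7.88, 7.93 and 7.46 in *Mef2c*-het. The P30 arrays lay above the P1 arrays in both genotypes, by little for the lowest *Mef2c*-het array. The level at P30 was at least 1.37-fold that at P1 in WT (limma adjusted p = 0.000298). In *Mef2c*-het the means were 7.20 at P1, with 1 array measured above background, and 7.78 at P30 (adjusted p = 0.000142). *Man1a* too passed the detection filter through its P30 arrays, where it was high, and the size of its rise depended on the background correction, at 0.53 on the log2 scale in WT without and 1.55 with normexp.

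*Pou3f1* was not called between the ages in either genotype. It read 11.20, 10.88, 10.99 and 10.96 at P1 and 10.88, 10.92, 11.21 and 11.03 at P30 in WT, and 10.85, 10.82, 11.19 and 11.12 at P1 and 11.06, 10.96, 11.22 and 11.25 at P30 in *Mef2c*-het. The ages overlapped, and the differences of 0.0053 ± 0.10 in WT (95% interval -0.21 to 0.22, limma adjusted p = 0.969) and 0.13 ± 0.10 in *Mef2c*-het (-0.087 to 0.35, adjusted p = 0.299) did not pass. The WT value was below 0 under median scaling, at -0.061.

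The 2 *Bok* probes were called in different genotypes. ILMN_2772077 read 11.25, 11.42, 11.30 and 11.25 at P1 and 11.54, 11.53, 11.50 and 11.57 at P30 in WT, a difference of 0.23 ± 0.10 that did not pass (limma adjusted p = 0.0607). In *Mef2c*-het it read 11.04, 11.20, 11.27 and 11.07 at P1 and 11.60, 11.55, 11.91 and 11.26 at P30, a rise of 0.43 ± 0.10 (adjusted p = 0.00144). The WT ages did not overlap while the *Mef2c*-het ages did, since the *Mef2c*-het P30 arrays were spread more widely. ILMN_1237404 read 7.78, 7.79, 7.67 and 7.95 at P1 and 8.01, 8.03, 8.32 and 8.38 at P30 in WT, a rise of 0.39 ± 0.088 (adjusted p = 0.00110). In *Mef2c*-het it read 7.98, 7.87, 8.0 and 7.88 at P1 and 7.98, 8.10, 8.13 and 8.19 at P30, a difference of 0.17 ± 0.088 that did not pass (adjusted p = 0.119). The difference between the genotypes in this rise was itself not called for either probe, at 0.20 ± 0.14 and -0.22 ± 0.12 (limma adjusted p = 0.998 for both). The call of ILMN_2772077 in WT passed with cyclic loess (0.35, adjusted p = 0.00746), with the array clusters as a block (0.30, adjusted p = 0.0191) and without WT P1 replicate 4 (0.27, adjusted p = 0.0497), that in *Mef2c*-het was lost with median scaling (0.41, adjusted p = 0.0584), and ILMN_1237404 in *Mef2c*-het passed with cyclic loess (0.19, adjusted p = 0.0497).

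**Figure D2:**
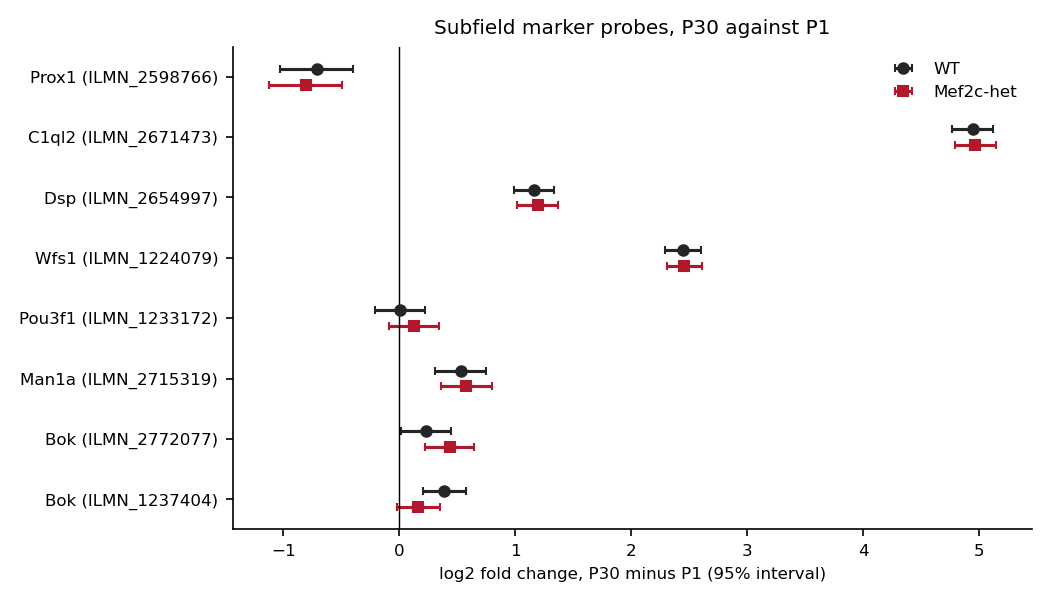
Log2 fold change from P1 to P30 (x axis) of the 8 tested probes in WT (black circles) and *Mef2c*-het (red squares), with 95% intervals from limma. *C1ql2* lies near 5 and *Wfs1* near 2.5 in both genotypes, *Prox1* lies below 0, and the intervals of *Pou3f1* cross 0.

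In counts, 5 of the 8 tested probes were called higher at P30 and 1 lower in each genotype. Of all 14777 probes, 28% were called higher and 31.7% lower in WT, and 26.9% and 31.4% in *Mef2c*-het. The median difference over the 8 probes was 0.46 in WT and 0.51 in *Mef2c*-het, against -0.032 and -0.024 over all probes. Of the 5 probes called higher, *Dsp* and *Man1a* passed the detection filter through their P30 arrays, where they were high. *Bok* has 2 of the 8 tested probes. These counts and medians thus describe the probes tested and not all listed genes. By subfield, the 3 granule cell genes tested split into 2 called higher and 1 lower in each genotype, and of the 4 CA genes, by the brighter probe of each, 2 were called higher in WT and 3 in *Mef2c*-het. That difference in count rests on *Bok*, whose dimmer probe was called in WT and not in *Mef2c*-het. In whole tissue a greater number of cells of a type and more RNA per cell cannot be told apart. With sex as a covariate, since the P30 arrays were all male, *C1ql2* rose by 4.85 and *Wfs1* by 2.44 and *Prox1* changed by -0.84 in WT (limma adjusted p = 3.16e-14, 1.64e-11 and 0.00133).

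Other markers of the same 2 cell classes, from a wider list, moved both ways. Of 9 further granule cell genes 4 were tested, and in WT *C1ql3*, a relative of *C1ql2*, rose by 0.78 ± 0.17 and *Trpc6*, a cation channel, by 0.54 ± 0.12. *Akap7*, a kinase anchor, fell by 0.42 (limma adjusted p = 0.000664), and *Npnt*, a matrix protein, differed by 0.047 ± 0.073 and did not pass. *C1ql3* was not above background on any *Mef2c*-het P1 array, and on too few P1 arrays to be tested between genotypes there. It passed the detection filter with its P30 arrays, where it was high, so its rise is no further support. *Calb1*, the calcium buffer calbindin, was not above background on any array of either age, which does not show that its RNA was absent. Of 19 further CA genes 14 were tested, of which 6 were called higher and 4 lower in WT, with a median of 0.089, and 7 higher and 6 lower in *Mef2c*-het, with a median of 0.015. Among them *Rgs14*, called higher, was not above background on any P1 array, and *Neurod6*, called lower, on any P30 array. Both passed the detection filter only through the age where they were high, so their calls are no further support. *Spink8*, a protease inhibitor, rose by 3.67 ± 0.12 in WT, *Fibcd1*, a receptor for acetylated groups, by 2.19 ± 0.12 and *Amigo2*, an adhesion molecule, by 1.49 ± 0.10, while *Socs2*, a cytokine signalling suppressor, fell by 1.65. In both wider lists some markers were called higher and others lower.

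Markers of other cells moved between the ages too. All 9 tested genes of immature neurons were called lower at P30 in WT and 8 of 9 in *Mef2c*-het, with medians of -1.85 and -1.77, among them the microtubule protein *Dcx* (-4.55 ± 0.095 in WT). Their summed intensity was 18252 to 26266 on WT and 18815 to 27971 on *Mef2c*-het arrays at P1 and 2804 to 3747 and 2947 to 3800 at P30, where *Eomes* and *Draxin* were not above background. All 8 oligodendrocyte genes were called higher in both genotypes, with medians of 5.09 in WT and 4.85 in *Mef2c*-het. Their summed intensity was 2035 to 2672 and 2024 to 3866 at P1, with *Mog* and *Mobp* not above background, and 87672 to 118519 and 88781 to 107190 at P30. *Eomes*, *Draxin*, *Mog* and *Mobp* passed the detection filter only through the age where they were high, so in both lists their calls are no further support. These lists moved with the same arrays as *Prox1*, *C1ql2* and *Wfs1*, and their part in those differences was not tested. In WT 7 of 8 astrocyte genes, 6 of 7 microglial genes and 7 of 8 interneuron genes were called higher, with *Reln* of the interneuron list lower. The counts include *S100b* of the astrocyte list and *Pvalb* of the interneuron list, which were not above background on any WT P1 array. They passed the filter through their P30 arrays, so their calls are no further support either. Choroid plexus (1 higher and 1 lower of 7), thalamus (3 and 2 of 6), neocortex (1 and 1 of 6), striatum (4 and 0 of 5) and blood genes (0 and 2 of 4), which neighbouring tissue in a dissection could bring, were called in part. *Lef1* of the thalamus list, called lower, was not above background on any P30 array, and the same limit holds for its call. The summed choroid plexus signal differed widely between arrays of a group, from 6326 to 40895 on the WT P1 arrays and from 2032 to 24701 on the WT P30 arrays.

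**Figure D3:**
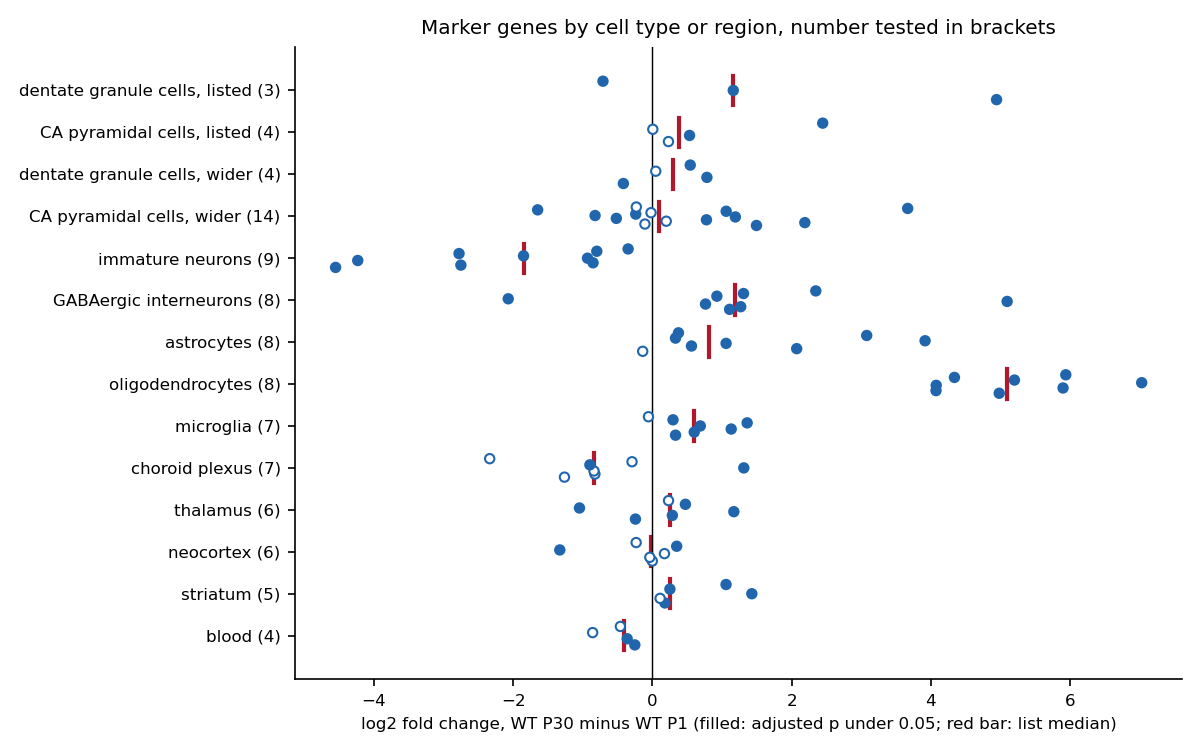
Log2 fold change from P1 to P30 in WT (x axis) of each tested gene of 14 marker lists, 1 point per gene, filled where the adjusted p was under 0.05, with the list median as a red bar. Immature neuron genes lie left of 0 and oligodendrocyte genes right of 4, while 3 of the 4 subfield lists have genes on both sides and the tested genes of the listed CA markers lie at or right of 0.

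The genotype comparison asked whether the subfield markers differed between *Mef2c*-het and WT mice of the same age, with each age normalized and fitted on its own 8 arrays. No listed probe was called at P30. Of 8 probes tested 0 were called by limma, 0 had an unadjusted p under 0.05, 0 had arrays that did not overlap between the genotypes, and 0 were called by an equal-variance test per probe. Over all 13413 probes these shares were 0.00746% called, 2.36% with an unadjusted p under 0.05 and 1.75% without overlap, so that counts of 0 in 8 are not set apart from them. The *Prox1* probe ILMN_2598766 read 9.38 ± 0.23 (SD, n = 4) in WT and 9.32 ± 0.074 in *Mef2c*-het, and *C1ql2* 12.40 ± 0.052 and 12.47 ± 0.18. *Dsp* read 8.18 ± 0.13 in WT and 8.24 ± 0.16 in *Mef2c*-het.

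The granule cell genes thus differed by -0.060 ± 0.11 (SE) for *Prox1* (95% interval -0.30 to 0.18), 0.062 ± 0.089 for *C1ql2* (-0.14 to 0.26) and 0.053 ± 0.097 for *Dsp* (-0.16 to 0.27). Of the CA genes *Wfs1* differed by 0.083 ± 0.065 (-0.063 to 0.23) and *Pou3f1* by 0.12 ± 0.096 (-0.099 to 0.33). *Man1a* differed by 0.0023 ± 0.12 (-0.26 to 0.27), and the *Bok* probes by 0.045 ± 0.12 (ILMN_2772077, -0.22 to 0.31) and -0.083 ± 0.097 (ILMN_1237404, -0.30 to 0.13). The intervals of all 8 probes contained 0 and lay between -0.30 and 0.33, which bounds a difference in these probes at 4 arrays per group and does not show that the genotypes were alike. The smallest exact permutation p was that of *Wfs1*, 0.114 (two-sided, n = 4 per group, smallest possible 0.0286).

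**Figure D4:**
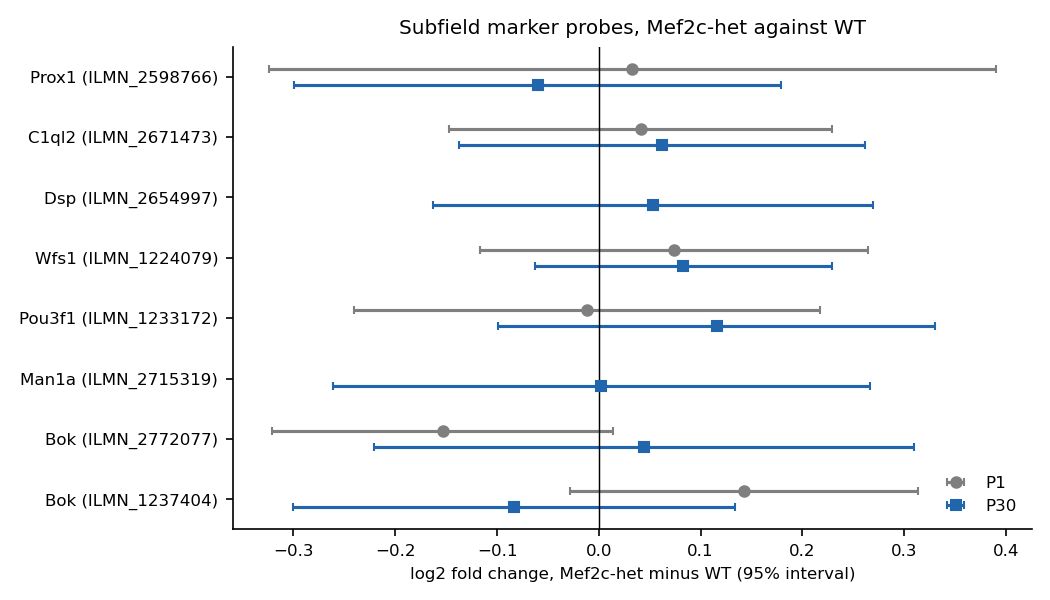
Log2 fold change of *Mef2c*-het against WT (x axis) at P1 (grey circles) and P30 (blue squares), with 95% intervals from limma. All intervals cross 0, and *Dsp* and *Man1a* have no P1 value because they were not tested there.

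At P1 the same 3 counts were 0 for the 6 probes tested. By limma 0 were called, 0 had an unadjusted p under 0.05 and 0 had arrays without overlap, against 0%, 1.62% and 1.29% of 13566 probes, and the equal-variance test called 0. *Prox1* ILMN_2598766 differed by 0.033 ± 0.16 (95% interval -0.32 to 0.39), *C1ql2* by 0.041 ± 0.084 (-0.15 to 0.23), *Wfs1* by 0.074 ± 0.085 (-0.12 to 0.26) and *Pou3f1* by -0.012 ± 0.10 (-0.24 to 0.22). The 2 *Bok* probes had the smallest p-values and opposite signs. ILMN_2772077 was 11.32 ± 0.076 (SD, n = 4) in WT and 11.17 ± 0.11 in *Mef2c*-het (-0.15 ± 0.075 SE, exact permutation p = 0.0857), and ILMN_1237404 was 7.81 ± 0.12 and 7.96 ± 0.071 (0.14 ± 0.077, exact permutation p = 0.0857). Over the 16 arrays the 2 *Bok* probes had an r of 0.45, which holds the shift between the ages. The interaction of genotype with age was called for 0 of the 8 probes by limma and 0 had an unadjusted p under 0.05, against 0% and 2.96% of 14777 probes.

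Several of these genes differed between the 2 array clusters at P30, in values normalized within each age. In 4 of the 8 tested probes the 3 arrays of the smaller cluster did not overlap with the other 5, as in 30.3% of all probes tested, from which the clusters were drawn. *Man1a* read 7.45 to 7.63 in the smaller cluster and 7.82 to 7.95 in the larger, and *Dsp* 7.99 to 8.21 and 8.22 to 8.41. *Prox1* ILMN_2598766 and *Bok* ILMN_1237404 were higher in the smaller cluster, at 9.38 to 9.67 against 9.13 to 9.36 and at 8.16 to 8.35 against 7.95 to 8.10. *Mef2c*-het minus WT within the larger cluster was 0.086 for *Prox1*, 0.033 for *C1ql2*, 0.055 for *Wfs1* and -0.035 for *Man1a*, and in the smaller, with 1 *Mef2c*-het array, -0.16, 0.12, 0.13 and -0.17. With the clusters as a block, or with the larger cluster alone, 0 listed probes were called by genotype at either age. At P1 0 of the 6 tested probes separated the clusters, against 29.8% of all probes. The source of the clusters is not given in the labels and was not tested.

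No gene of the wider granule cell or CA lists, or of the 10 lists of other cells and regions, was called between the genotypes at either age. Over all probes tested 0.00746% were called at P30 and 0% at P1. The absence of calls in these lists is therefore not set apart from all probes. At P30 the medians were 0.010 for the wider granule cell genes (4 tested) and 0.000077 for the wider CA genes (13 tested), with *Socs2* lowest (-0.20 ± 0.084, unadjusted p = 0.0359, limma adjusted p = 0.976). At P1 they were 0.014 (3 tested) and 0.051 (12 tested). Medians of the other lists ran from -0.18 for choroid plexus to 0.13 for immature neurons at P30 and from -0.19 for blood to 0.094 for interneurons at P1, beside -0.011 and 0.0015 over all probes. An unadjusted limma p under 0.05 at P30 was found for 2 interneuron genes. The wider CA, immature neuron, microglial and striatum lists had 1 such gene each. At P1 the microglial list had 2 and the neocortex list 1. Over all probes 2.36% had such a p at P30 and 1.62% at P1.

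Among the genes whose pattern over the 16 arrays was most like that of *Prox1* ILMN_2598766 were *Med12* (Pearson r = 0.97) and *Gar1* (0.96), and those most like *Wfs1* were *Ntsr2*, *Rasgrf1* and *Tuba4a* (each 0.998). All of these share the shift between the ages, since the arrays form 2 ages, and in WT *Rasgrf1* rose by 5.51 and *Ntsr2* by 4.35 while *Med12* fell by 0.49. The correlations are a description over arrays that share these ages.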

How the data were processed

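The authors deposited, per the file headers, the mean bead intensity of each probe on a linear scale without normalization between arrays, a detection p-value, the bead standard error (also an intensity) and the count of beads. Any background subtraction before deposit is not given in the sources used here, and the submitters' processing notes name lumi and limma. The lowest intensity was 92.8, so no constant was added before log2.

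The log2 intensities were quantile normalized and fitted with limma 3.58.1 in R 4.3.3 (lmFit, eBayes, two-sided), over the 8 arrays of an age for genotype and over all 16 for age and for the interaction of genotype with age. Log2 and quantile normalization follow the study's methods. The filter (detection p under 0.05 on at least 4 arrays) was chosen here. Single probes were also compared by an exact permutation test over all splits of 8 arrays. Levels were read from 36 to 39 beads per probe (median), and 4 arrays per group limit the precision. For 25376 of 25697 probes a gene was named through the RefSeq table of GRCm38.p6 by Entrez number, accession, symbol or older symbol. Sequences are from RefSeq, with a promoter for 9 of the 10 genes. The steps were tested on simulated data.

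The members and lists were chosen with earlier results of these data known. All member probes are given. For *Prox1* and *Wfs1* the 3 genes of highest Pearson r were taken, of which 1 is not reported here. Of other lists at most 4 genes are named, those of smallest p in the comparison described, except genes named as not above background, *Reln* and *Calb1*, which were named after their values were seen. Alternatives were normexp (offset 16), median scaling, cyclic loess, a detection p under 0.01, no filter, trended robust variances, sex, array clusters or replicate numbers as terms, all 16 arrays together, an equal-variance test per probe, and leaving out each array. The larger array cluster alone was added after seeing the data. Analyses of promoters used Python 3.11.15 and pandas 2.3.3, and plots matplotlib 3.10.9.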

Additional observations from a re-analysis of the deposited data

Results flagged for a closer look

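An array far from the other 3 of its group was found in 2 of 44 groups of 4 arrays (each member probe in each group), where chance gives about 1 in 20, or 2.2. *Prox1* ILMN_2894355 on the array WT 7 at P30 read 7.42 against 7.31 for the nearest WT array, a gap of 0.844 of the group's whole range (Dixon's test at the 95% level). *Dsp* on the array *Mef2c*-het 2 at P1 read 7.14 against 7.04 for the nearest, a gap of 0.935 of the range. Both readings are from values normalized within each age. *Dsp* was not above background on any of those 4 arrays and *Prox1* ILMN_2894355 on 2 of its 4, so both gaps lie near the floor of the measurement.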

How the results depend on the processing

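Under every setting run, counts of listed probes called by genotype stayed at 0 of those tested, at P30, at P1 and for the difference between the ages. Called higher between the ages were 5 to 6 probes in WT and 4 to 6 in *Mef2c*-het, and 1 was called lower throughout. Genotype values lie near 0, and these changed sign without being called. With normexp, *Man1a* at P30 was -0.014 and the differences between the ages were -0.065 for *C1ql2* and -0.041 for *Wfs1*. With sex as a covariate, *Prox1* at P1 was -0.011 and *Pou3f1* 0.0016. With the clusters as a block, *Dsp* (-0.00071), *Man1a* (-0.082) and *Bok* ILMN_2772077 (-0.0018) at P30, and the differences between the ages of *Dsp* (-0.024) and *Man1a* (-0.041), turned. In the larger cluster alone, *Prox1* (0.088), *Man1a* (-0.037) and *Bok* ILMN_1237404 (0.051) at P30, *Prox1* at P1 (-0.055), and the differences between the ages of *Prox1* (0.14), *C1ql2* (-0.0082) and *Man1a* (-0.066) turned. From P1 to P30 in WT *Pou3f1* was -0.061 with median scaling, -0.082 with the clusters as a block and -0.12 in the larger cluster.

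Replicate numbers are shared by 3 pairs at each age. Deviations of same-numbered arrays correlated at 0.19, -0.53 and 0.71 at P30 and 0.09, 0.40 and 0.83 at P1. The highest, 0.71 for number 7 at P30 and 0.83 for number 8 at P1, joined arrays of the smaller cluster. In these pairs a shared number and a shared cluster cannot be told apart. At P1 the arrays of these pairs other than *Mef2c*-het 1 correlated best with their own number, and at P30 only WT 7 did. The numbers were not used as pairs in the main fits, and so few pairs cannot settle whether they pair the samples. With the replicate block 0 listed probes were called, and *Prox1* (-0.13), *C1ql2* (-0.00052) and *Pou3f1* (0.039) at P1 and the difference between the ages of *Prox1* (0.042) turned. Over all probes the block called 0 at P30 and 3 at P1, against 1 and 0. The one probe called at P30 over all probes was lost under 6 of 11 settings and without any of 7 of the 8 arrays.

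Leaving out each array in turn, the genotype value at P30 ran from -0.14 to 0.035 for *Prox1*, -0.014 to 0.12 for *C1ql2*, -0.010 to 0.13 for *Dsp*, -0.052 to 0.11 for *Man1a* and -0.066 to 0.15 for *Bok* ILMN_2772077. At P1 it ran from -0.10 to 0.16 for *Prox1* and -0.074 to 0.051 for *Pou3f1*, and *Pou3f1* from P1 to P30 in WT from -0.061 to 0.069. The difference between the ages ran from -0.22 to 0.037 for *Prox1*, -0.054 to 0.072 for *C1ql2*, -0.034 to 0.11 for *Dsp*, -0.042 to 0.060 for *Wfs1* and -0.013 to 0.15 for *Man1a*. The cause of these changes of sign was not tested. Dim probes limit what can be read of *Tdo2*, *Pcp4*, *Man1a* and *Dsp*.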
